A study of Mus musculus with 15 samples.

Results

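The EGF-family ligands and receptors were taken here as 9 genes, found by symbol among the 45804 genes of the cecal FPKM table with a unique symbol. There were 6 ligands (Areg, Ereg, Btc, Hbegf, Tgfa and Egf) and 3 receptors (Egfr, Erbb2 and Erbb3). Poly-A RNA was sequenced from the emptied ceca of 7 AIMD mice and of 8 mice given vehicle. AIMD stands for antibiotic-induced microbiome depletion, and these mice were gavaged with ampicillin, vancomycin, metronidazole, neomycin and amphotericin B 2 times a day for 30 days, while vehicle-treated mice received water. All were male wild-type C57BL/6 mice, with an age of 20 weeks in the sample labels and a younger starting age in the methods. The luminal bacteria were depleted and not absent, and the antibiotics reached the mouse as well, so these effects cannot be told apart in this design.

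The ligands of this family are made as membrane-bound precursors, and their soluble EGF domain is released by metalloproteases or rhomboid proteases. Areg, Tgfa and Egf bind the EGF receptor, encoded by Egfr, and Btc, Hbegf and Ereg can also engage the receptor encoded by Erbb4. Erbb2 binds no known ligand and acts as a partner of the other receptors, and Erbb3 binds neuregulins and has little kinase activity of its own. In the gut epithelium the family is known for driving proliferation of crypt cells and repair after injury.

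AIMD mice had higher cecal RNA of 4 ligands, Areg, Ereg, Btc and Hbegf, by 1.67-fold to 2.95-fold of the mean FPKM, and of the receptor Egfr, by 1.51-fold. RNA of the ligand Tgfa and of the receptor Erbb2 was lower, with means 1.68 and 1.502 times as high in vehicle-treated mice. Erbb3 was not past the test, and Egf was too low to be tested. FPKM counts the reads of a gene per length of transcript, after scaling between libraries. The deposited values were already level between mice by median of ratios over genes, with a size factor of 1.01 in each. Differences were tested with limma on log2(FPKM + 0.5), a scale that understates the change of low genes, over the 11983 genes that reached an FPKM of 0.5 in 7 or more mice, and adjusted p is the Benjamini–Hochberg value over these genes. With a threshold of 0.05, 7 of the 8 tested members were called, 5 higher and 2 lower in AIMD mice. Over all tested genes 36.1% were called, 19.4% higher and 16.7% lower, so a call alone was common in this comparison. In bulk RNA, fewer cells of a type and less RNA per cell cannot be told apart.

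Between 8682308 and 18115189 reads were counted on genes in AIMD mice, and between 4373855 and 14411502 in vehicle-treated mice. All AIMD mice lay at 11.85 or more on the first principal component and all vehicle-treated mice at -12.13 or less. Epithelial markers (9 genes, Epcam and Cdx2 among them) summed to an FPKM of 3343 to 4910 in AIMD mice and 3105 to 4191 in vehicle-treated mice, with 3 called higher, 1 lower and a median log2 fold change of 0.42. The 5 large intestine markers summed to 21865 to 30700 and 17829 to 26699, and none was called. Pancreas and liver markers summed to at most 0.613 in any mouse. The 8 smooth muscle markers summed to 215 to 820 in AIMD mice and 521 to 3046 in vehicle-treated mice, and 1 of them was called, lower. The 7 neuron and glia markers summed to 2.51 to 4.45 and 3.76 to 62.2, with 3 of 4 tested called lower. The 4 stem cell markers, Lgr5 among them, summed to 3.15 to 8.05 and 6.91 to 12.1, with 1 of 2 tested called lower. The 6 goblet cell markers, Muc2 among them, summed to 1126 to 2232 and 513 to 1710, with 1 called higher and 1 lower. Median log2 fold changes of the tested markers were -0.72 (smooth muscle), -1.14 (neuron and glia), -0.555 (stem), 0.42 (goblet) and 0.09 (large intestine). No listed marker of these types was at 0 in all mice. Mitochondrial reads made up 4.28% to 10.9% in AIMD mice and 6.92% to 26.2% in vehicle-treated mice. The part that epithelial, muscle, nerve, stem and goblet cell content and the mitochondrial share have in the results was not tested. Vehicle replicate 8 had the highest muscle and nerve sums and the fewest reads, and results without it are given below for Areg and Erbb2. Leaving it out also moved the log2 fold change of Hbegf from 0.74 to 0.84 and that of Erbb3 from 0.08 to 0.15.

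The genes of 3 members, Ereg, Areg and Btc, lie together on chromosome 5 with Epgn, which encodes epigen, another EGF receptor ligand. On GRCm38 (GENCODE M21), Epgn runs from 91027464 to 91035215, Ereg from 91074622 to 91093646 and Areg from 91139599 to 91148432, all on the plus strand, and Btc from 91357261 to 91402994 on the minus strand. The cluster spans 375.5 kb, with gaps of 39.4, 46.0 and 208.8 kb. Ereg, Areg and Btc were each called higher in AIMD mice, and the promoters of Areg, the most abundant ligand, and Btc, the member with the largest fold, are shown, 250 bases before to 50 bases after the start of the transcript (RefSeq, GRCm38.p6). Capitals mark the 8 bases TGACGTCA, the full cAMP response element (CRE), to which factors of the CREB family bind.

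Areg promoter, chr5:91139349-91139648, plus strand: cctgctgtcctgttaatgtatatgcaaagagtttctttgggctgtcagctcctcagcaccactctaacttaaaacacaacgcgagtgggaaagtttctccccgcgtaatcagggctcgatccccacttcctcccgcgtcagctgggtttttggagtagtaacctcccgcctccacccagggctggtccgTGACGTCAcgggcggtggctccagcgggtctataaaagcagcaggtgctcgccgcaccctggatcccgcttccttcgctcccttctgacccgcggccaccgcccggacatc

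Btc promoter, chr5:91402945-91403244, minus strand: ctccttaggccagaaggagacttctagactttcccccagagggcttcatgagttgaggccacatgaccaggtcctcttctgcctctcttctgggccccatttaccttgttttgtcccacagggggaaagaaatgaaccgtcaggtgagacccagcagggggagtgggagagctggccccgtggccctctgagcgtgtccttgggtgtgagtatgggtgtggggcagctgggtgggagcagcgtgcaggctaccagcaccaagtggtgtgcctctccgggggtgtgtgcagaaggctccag

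The Areg promoter held this element 61 bases before the start. Of 32851 promoters of the same length, 1.79% held TGACGTCA on either strand. The shorter letters TGACGT, present in 7.51% of promoters, matched in the Areg promoter only within the full element. The Btc promoter held none of the CRE, the AP-1 motif TGANTCA (7.81% of promoters) and the E-box CACGTG (7.15%), each searched on both strands. None of these motifs was found in the promoters of Egfr, Erbb2, Tgfa, Egf and Epgn. The GC box GGGCGG, present in 35.7% of promoters, was searched as well. It was found in the promoters of Areg, Egfr and Tgfa and not in those of Btc, Erbb2, Egf and Epgn. Promoters of Ereg, Hbegf and Erbb3 were not analysed here. Such matches describe letters in a window and say nothing of binding.

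Areg encodes amphiregulin, and it had the highest RNA level of the ligands in either group. Its FPKM in AIMD mice had a lowest value of 39.4, a median of 59.3 and a highest value of 73.9. In vehicle-treated mice these were 13.5, 26.7 and 63.2. The groups overlapped through a single control, since 7 of the 8 vehicle-treated mice lay below every AIMD mouse and vehicle replicate 4 lay above 4 of the 7. The mean was 58.5 ± 13.6 (mean ± SD, n = 7) with AIMD and 31.0 ± 14.8 (n = 8) with vehicle, 1.89 times as high, a log2 fold change of 1.00 (SE 0.24, limma adjusted p = 0.00473). Leaving out each mouse in turn moved it to between 0.85, without vehicle replicate 8, and 1.16, without vehicle replicate 4, and Areg was called each time.

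Ereg encodes epiregulin and was expressed at a far lower level. The lowest, median and highest FPKM were 2.56, 4.26 and 5.81 in AIMD mice and 0.923, 2.07 and 2.90 in vehicle-treated mice. AIMD replicate 4, at 2.56, was the only AIMD mouse that did not exceed the highest vehicle-treated mouse, although AIMD replicate 7 exceeded it narrowly. The means were 4.11 ± 1.12 (SD, n = 7) and 2.10 ± 0.714 (n = 8), a 1.96-fold difference and a log2 fold change of 0.84 (SE 0.20, limma adjusted p = 0.00350). Between 27 and 455 reads per mouse lay behind these values.

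Btc encodes betacellulin and had the largest fold of the members. Its FPKM in AIMD mice ran from 1.54 through a median of 2.32 to 2.98, and in vehicle-treated mice from 0.595 through 0.665 to 1.31. Every AIMD mouse was above every vehicle-treated mouse, a separation that 5.27% of the tested genes showed in this direction. The means were 2.34 ± 0.539 (SD, n = 7) and 0.792 ± 0.270 (n = 8), 2.95 times as high in AIMD mice, and the log2 fold change was 1.13 (SE 0.15, limma adjusted p = 3.56e-05). An exact permutation test (2-sided) that enumerated the 6435 ways to split the mice gave p = 0.000155, the smallest value these groups allow. Vehicle-treated mice had only 12 to 66 Btc reads each, so their level was measured less precisely than that of Areg.

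Hbegf encodes heparin-binding EGF-like growth factor, a ligand that is induced in injured epithelia. Its lowest, median and highest FPKM were 13.7, 21.8 and 27.2 in AIMD mice and 9.14, 9.92 and 19.5 in vehicle-treated mice. Of the vehicle-treated mice, replicates 4 and 8 lay within the AIMD range, at 18.6 and 19.5, and the other 6 lay below all AIMD mice. The means were 20.6 ± 5.26 (SD, n = 7) and 12.3 ± 4.30 (n = 8), 1.67 times as high in AIMD mice, a log2 fold change of 0.74 (SE 0.20, limma adjusted p = 0.00845). Without replicates 4 and 8 of the vehicle group, an alternative chosen after seeing the data, the log2 fold change was 0.96 (limma adjusted p = 0.000438).

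Tgfa encodes transforming growth factor alpha, a ligand made by many surface epithelia, and it was the only tested ligand that was lower in AIMD mice. The FPKM was 5.40 in the lowest, 9.88 in the median and 17.1 in the highest AIMD mouse, against 10.2, 16.1 and 29.3 in vehicle-treated mice. All but 2 AIMD mice, replicates 4 and 7, lay below every vehicle-treated mouse. The means were 10.3 ± 3.49 (SD, n = 7) and 17.3 ± 6.57 (n = 8), and the log2 fold change was -0.70 (SE 0.23, limma adjusted p = 0.0257). The call rested on single mice, because the adjusted p in limma was 0.0577 without AIMD replicate 2 and 0.0506 without vehicle replicate 7, with log2 fold changes of -0.56 and -0.62. Tgfa lies on chromosome 6, from 86195223 to 86275719.

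Egf, the ligand that names the family, was close to absent from cecal RNA. It had 0 to 21 reads per mouse, 91 in all AIMD mice together and 37 in all vehicle-treated mice. The FPKM was 0.0840 ± 0.0259 (mean ± SD, n = 7) with AIMD and 0.0476 ± 0.0282 (n = 8) with vehicle, with ranges that overlapped. Egf did not pass the filter on low values and was not tested in limma, while the exact permutation test of the difference in log2(FPKM + 0.5) gave p = 0.0244 (2-sided). At this depth no direction was read from it.

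**Figure D1:**
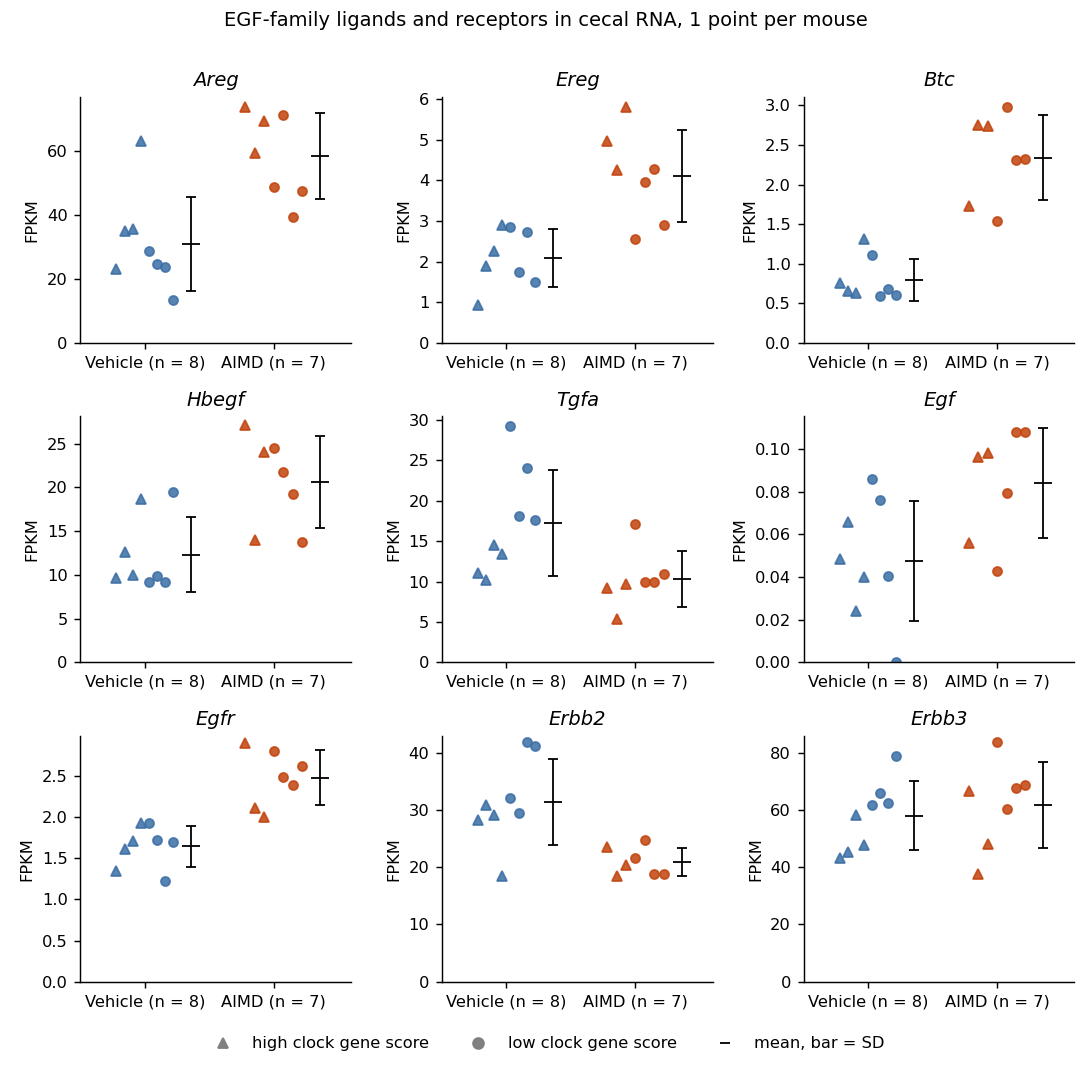
FPKM of the 6 ligands and 3 receptors (vertical axes, each from 0) in every vehicle-treated mouse (blue, n = 8) and AIMD mouse (red, n = 7), with the group mean and SD in black and with triangles for mice of high and circles for mice of low clock gene score. Points of the groups are apart for Btc and Egfr, are apart except for a few mice for Areg, Ereg and Erbb2, and are mixed for Erbb3.

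Egfr encodes the EGF receptor itself and was low in whole cecum. The FPKM in AIMD mice was 2.01 at the lowest, 2.49 at the median and 2.91 at the highest, and 1.23, 1.71 and 1.93 in vehicle-treated mice. As with Btc, no vehicle-treated mouse reached the lowest AIMD mouse. The mean was 2.48 ± 0.335 (SD, n = 7) against 1.65 ± 0.251 (SD, n = 8), 1.51 times as high, with a log2 fold change of 0.47 (SE 0.11, limma adjusted p = 0.00329; exact permutation p = 0.000155). Btc and Egfr were the 2 members whose groups did not overlap, where 8.56% of the tested genes had no overlap in either direction. Egfr lies on chromosome 11, from 16752203 to 16918158, opposite the antisense gene Egfros.

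Erbb2, the partner receptor that binds no ligand, went the other way. Its FPKM was 18.5, 20.4 and 24.9 in the lowest, median and highest AIMD mouse and 18.5, 30.1 and 41.9 in vehicle-treated mice. Every vehicle-treated mouse except replicate 4, at 18.5, lay above all AIMD mice. The means were 20.9 ± 2.496 (SD, n = 7) and 31.4 ± 7.50 (n = 8), a log2 fold change of -0.55 (SE 0.15, limma adjusted p = 0.00913). It was -0.65 without vehicle replicate 4 and -0.49 without vehicle replicate 8, the mouse with the most muscle and nerve RNA. Erbb2 lies on chromosome 11 as well, from 98412470 to 98437716, and overlaps Mien1 on the opposite strand. The libraries were made with a stranded kit, but the strand setting of the counting is not given in the sources used here.

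Erbb3, the neuregulin receptor, had the highest level of the members, and its groups overlapped almost fully. The lowest, median and highest FPKM were 37.8, 66.5 and 83.7 in AIMD mice and 43.3, 59.9 and 79.0 in vehicle-treated mice. The means were 61.9 ± 15.02 (SD, n = 7) and 58.0 ± 12.1 (n = 8), and the log2 fold change was 0.08 (SE 0.17, limma adjusted p = 0.738). Its 95% interval, from -0.28 to 0.44, left room for a modest change either way. Erbb3 lies on chromosome 10, from 128567523 to 128589652.

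In FPKM, which is scaled per length and allows genes to be set side by side, the order of mean levels in vehicle-treated mice was Erbb3, Erbb2, Areg, Tgfa, Hbegf, Ereg, Egfr, Btc and Egf. Ranges over mice did not overlap between Erbb3 and Erbb2, between Hbegf and Ereg and between Btc and Egf, and the other neighbours in this order overlapped. In AIMD mice the order was Erbb3, Areg, Erbb2, Hbegf, Tgfa, Ereg, Egfr, Btc and Egf. There Areg overlapped with Erbb3, and its lowest mouse, at 39.4, was above the highest Erbb2 value, at 24.9. Tgfa was above Hbegf in the mean of vehicle-treated mice and below it in that of AIMD mice, and the ranges of these ligands overlapped in both groups.

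**Figure D2:**
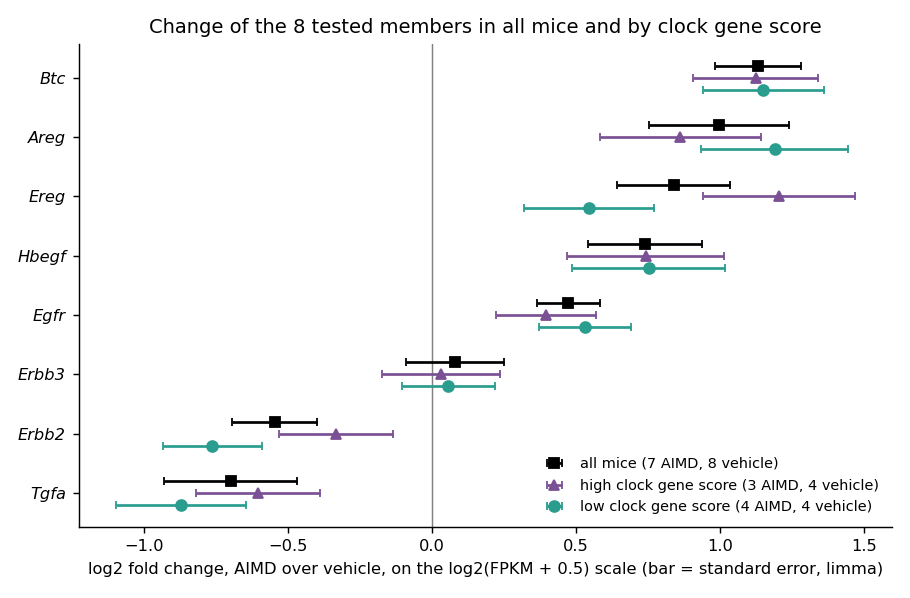
Log2 fold changes of the 8 tested members on the log2(FPKM + 0.5) scale (horizontal axis, AIMD over vehicle, bars are standard errors in limma), for all mice (squares) and for mice with a high (triangles) or low (circles) clock gene score. Each called member keeps its direction in both clusters of mice, from 1.13 for Btc to -0.70 for Tgfa over all mice.

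The study's own model took account of when each mouse was sacrificed, which the sample labels do not give. RNA of 11 circadian clock genes, none of them a member, was therefore made into a score, the mean log2 level of Arntl, Npas2, Clock and Cry1 minus that of Per2, Per3, Nr1d1, Nr1d2, Dbp, Tef and Ciart. The score split each group: AIMD replicates 1 to 3 (2.15 to 2.69) and vehicle replicates 1 to 4 (2.37 to 2.52) were high, and the other 4 AIMD mice (0.010 to 0.378) and 4 vehicle-treated mice (-0.53 to 0.04) were low. Whether these clusters are times of sacrifice was not tested. In a limma fit with treatment and cluster, 2 members differed between the clusters, Tgfa and Erbb3, where 16.3% of the tested genes did.

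Tgfa was lower in the high-score mice of both groups. In the high-score cluster its FPKM was 9.16, 5.40 and 9.64 in AIMD mice and 11.1, 10.2, 14.5 and 13.4 in vehicle-treated mice. In the low-score cluster it was 17.1, 9.96, 9.88 and 10.99 in AIMD mice and 29.3, 18.1, 24.1 and 17.6 in vehicle-treated mice. Within each cluster every AIMD mouse was thus below every vehicle-treated mouse, although the groups overlapped over all mice. Groups this small were often apart, in 29.7% of the tested genes in the high-score cluster and 25.4% in the low-score cluster. The difference between clusters was -0.69 on the log2 scale (high minus low, SE 0.16, limma adjusted p = 0.0144). With the score as a covariate the log2 fold change of Tgfa between treatments was -0.70, as without it, and its adjusted p in limma was 0.00392.

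Erbb3 differed between the clusters and not detectably between the treatments. Its mean FPKM was 50.8 ± 14.6 (SD, n = 3) in high-score AIMD mice and 70.2 ± 9.74 (SD, n = 4) in low-score AIMD mice. In vehicle-treated mice it was 48.7 ± 6.61 (SD, n = 4) with a high score and 67.3 ± 8.01 (SD, n = 4) with a low score. AIMD replicate 1, at 66.5, was the only high-score mouse within the range of the low-score mice, which began at 60.5. The log2 difference between clusters was -0.48 (high minus low, SE 0.12, limma adjusted p = 0.0209). Areg was higher in high-score mice by 0.59 on the log2 scale, which did not pass the threshold (SE 0.20, limma adjusted p = 0.0552).

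No member's response to treatment was shown to differ between the clusters. In the limma fit with an interaction term, 0 of 11983 genes (0%) were called, 536 had an unadjusted p under 0.05, and none of the 8 tested members was among these. The interaction was estimated with wide errors, at most 0.66 on the log2 scale (Ereg, standard error 0.37), and no other tool was run on it. Within the 4 AIMD and 4 vehicle-treated mice of low score, Areg, Btc, Egfr, Tgfa and Erbb2 were called, where 20.7% of the tested genes were. Within the 3 AIMD and 4 vehicle-treated mice of high score, Ereg and Btc were called, where 15.7% of genes were. Hbegf was called in neither alone, with log2 fold changes of 0.75 and 0.74 (limma adjusted p = 0.0682 and 0.0886).

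**Figure D3:**
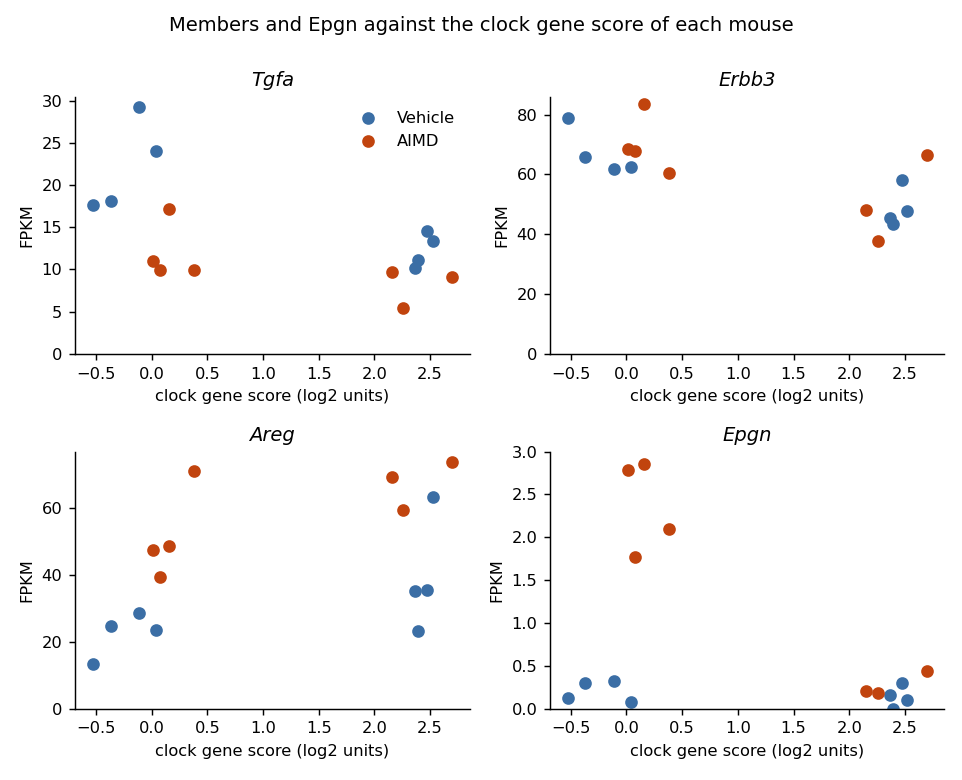
FPKM of Tgfa, Erbb3, Areg and Epgn (vertical axes) against the clock gene score of each mouse (horizontal axes, log2 units), with AIMD mice in red and vehicle-treated mice in blue. Mice form clusters near 0 and above 2.15, Tgfa and Erbb3 lie lower in the right cluster, and Epgn is at 1.77 or more in the 4 low-score AIMD mice and at 0.443 or less elsewhere.

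Epgn, the fourth gene of the chromosome 5 cluster, missed the filter because only 4 mice reached an FPKM of 0.5. These were the 4 low-score AIMD mice, at 2.86, 2.10, 1.77 and 2.79. The 3 high-score AIMD mice had 0.443, 0.184 and 0.204, and vehicle-treated mice had 0 to 0.322. AIMD mice were thus split by the score, and the high-score AIMD mice stood next to the controls. From 219 reads in the AIMD group and 20 in the vehicle group, the exact permutation test of the log2 difference gave p = 0.00326 (2-sided). The interaction of treatment and cluster was -1.73 on the log2 scale (high minus low, SE 0.28) and was not past the threshold when adjusted in limma over all 24279 genes above 0 (adjusted p = 0.233).

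**Figure D4:**
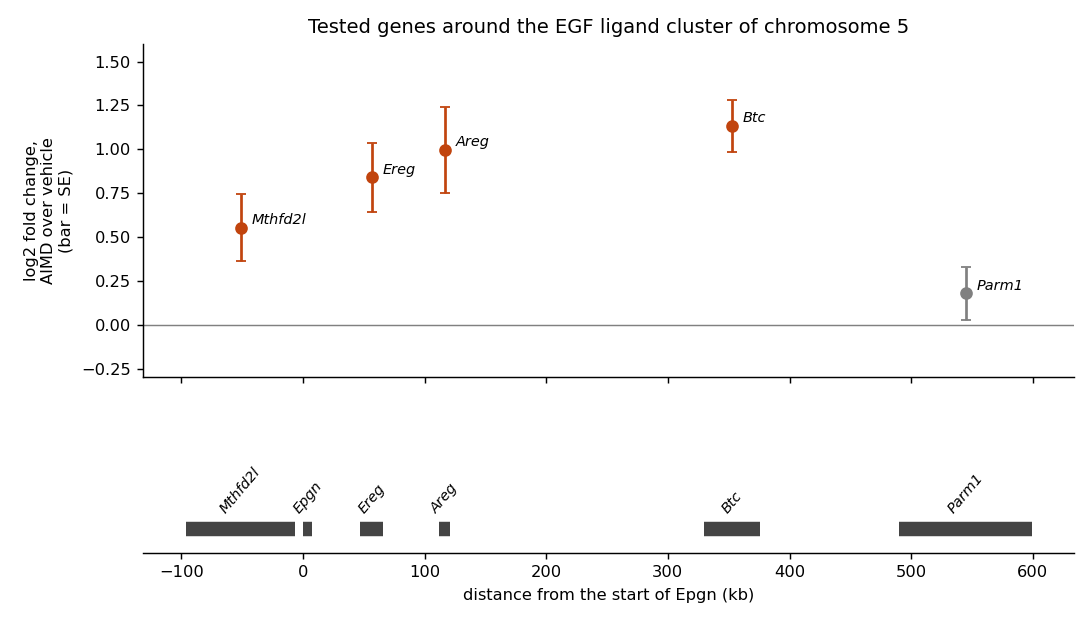
Log2 fold change (upper axis, AIMD over vehicle, bars are standard errors in limma) of the tested genes of the chromosome 5 ligand cluster and its neighbours, and the extent of each protein-coding gene (lower axis), by distance from the start of Epgn in kb. Ereg, Areg and Btc (0.84, 1.00 and 1.13) and Mthfd2l are called higher (red), Parm1 is not called (grey), Epgn was not tested, and chemokine genes farther to the left that were not tested are not drawn.

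Within 250 kb of the cluster 5 genes passed the filter, the 3 ligands and 2 others, which were chosen by position after the values were seen. Mthfd2l, a mitochondrial folate enzyme gene next to Epgn, rose by 0.55 on the log2 scale (limma adjusted p = 0.0324). Parm1, beyond Btc, had 0.18 (limma adjusted p = 0.370). With 19.4% of all tested genes higher in AIMD mice, 1 call among these 2 neighbours is not a result about the region.

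The other genes listed with the family, 4 neuregulins and Erbb4, were too low to be tested. Nrg1, a ligand of Erbb3, had an FPKM of 0.549 ± 0.303 (mean ± SD, n = 7) with AIMD and 0.0507 ± 0.0634 (n = 8) with vehicle (exact permutation p = 0.000311, 2-sided), from 118 and 9 reads in all. Of the 7 AIMD mice, 6 were above the highest vehicle-treated mouse, at 0.171. Nrg4, which binds the receptor of Erbb4, had 0.126 ± 0.0478 (SD, n = 7) and 0.303 ± 0.115 (n = 8) (exact permutation p = 0.00311, 2-sided). Nrg2 and Nrg3 had at most 3 reads in any mouse, and Erbb4 was listed at 0 in every mouse.

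Together with these 6 ligand and receptor genes (Epgn included), 80 genes around the family were listed by role, and 66 of them passed the filter. AIMD mice had higher RNA of 20 and lower RNA of 8, where 19.4% and 16.7% of all tested genes were called. The counts by role below stand beside these same shares, and no role was tested as a set. The median log2 fold change over the 66 was 0.12, against 0.01 over all tested genes.

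Among genes of ligand shedding, 2 of 7 tested were higher and none was lower, with a median log2 fold change of 0.07. The shares over all tested genes were 19.4% higher and 16.7% lower. Rhbdl2, a rhomboid protease that can cut EGF ligands from the membrane, had an FPKM of 7.84, 10.1 and 11.2 in the lowest, median and highest AIMD mouse and 1.79, 2.75 and 3.57 in vehicle-treated mice. The groups were far apart, with a mean 3.39 times as high in AIMD mice and a log2 fold change of 1.61 (limma adjusted p = 2.39e-07), larger on this scale than that of any of the 5 tested ligands. The metalloprotease gene Adam9 was higher by 0.91 (limma adjusted p = 0.00319). Adam17, the main sheddase of Areg, Tgfa and Hbegf, differed by 0.07 on the log2 scale (95% interval -0.16 to 0.30, limma adjusted p = 0.663), and Adam10, which sheds Btc and Egf, by 0.34 (limma adjusted p = 0.0877).

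Of the inhibitors that act on the receptors, 5 of 12 tested were higher and none was lower, with a median of 0.25. Over all tested genes, 19.4% were called higher and 16.7% lower. Errfi1, which encodes a feedback inhibitor that binds the EGF receptor kinase, had an FPKM of 36.6 ± 6.03 (mean ± SD, n = 7) with AIMD and 22.1 ± 5.59 (n = 8) with vehicle, a log2 fold change of 0.73 (limma adjusted p = 0.00166). The other 4 were the tyrosine phosphatase genes Ptprj (1.15), Ptpn9 (1.04) and Ptpn1 (0.46), and Socs3 (0.61), all as log2 fold changes. Lrig1, a stem cell gene whose product lowers receptor levels, was not called, at 0.08 (95% interval -0.20 to 0.37). Cbl, which encodes a ubiquitin ligase of the receptor, missed the filter.

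Inhibitors of the Ras-ERK cascade below the receptors were mixed, with 1 of 8 tested higher and 1 lower and a median of 0.03. Spred1 had a log2 fold change of 0.46 (limma adjusted p = 0.00571). Dusp6, an ERK phosphatase that is itself a target of ERK signaling, fell by 0.40 on the log2 scale (limma adjusted p = 0.0275). The Sprouty genes Spry1, Spry2 and Spry4 were not called, at 0.22, 0.05 and -0.10. Dusp4 missed the filter, with an FPKM of 0.738 ± 0.248 (mean ± SD, n = 7) with AIMD and 0.192 ± 0.117 (n = 8) with vehicle.

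All 25 listed genes of the signal relay were tested, and 7 were higher and 3 lower in AIMD mice, with a median of 0.08. Those with the largest changes were the kinase genes Akt1 (log2 fold change 1.27) and Src (1.17), the adapter gene Gab1 (-0.82), the kinase gene Araf (-0.72) and the phosphatase gene Ptpn11 (0.60). Akt1 rested on few reads in one control, 9 in the mouse with the fewest.

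Of the response genes, 5 of 14 tested were higher and 4 lower, with a median of 0.42. The largest changes were in Fosb (log2 fold change 1.27), Junb (-1.09), Ier2 (-1.05), Myc (0.73) and Mcl1 (0.63). Fosb passed the filter mainly through AIMD mice, all at an FPKM of 1.09 or more. Its vehicle median was 0.39, from 102 reads in all vehicle-treated mice together. Fos and Egr1, textbook early targets of receptor signaling, were not called, at -0.45 (95% interval -1.01 to 0.12) and 0.42 (95% interval -0.16 to 1.00). Etv4, a target of ERK signaling, was not called either, at 0.00 (95% interval -0.35 to 0.35). Of 6 markers of proliferation, Mki67 among them, 2 were called higher and none lower, where 19.4% of all tested genes were higher. Their sum ran from 47.3 to 65.5 FPKM in AIMD mice and from 30.9 to 56.5 in vehicle-treated mice.

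**Figure D5:**
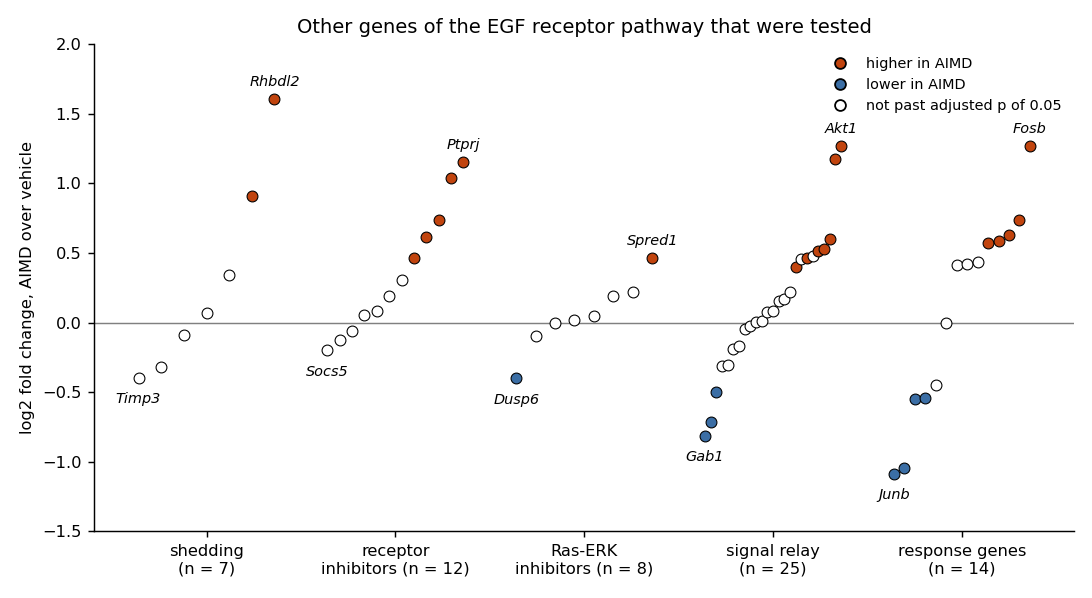
Log2 fold change (vertical axis, AIMD over vehicle) of the 66 tested pathway genes by role, each point a gene, placed left to right by its value within its role, filled red where called higher, blue where called lower and white where not called, with the extremes of each role named. Called genes lie only above 0 among shedding genes and receptor inhibitors and on both sides among the other roles. Over all tested genes 19.4% were called higher and 16.7% lower, and no role was tested as a set.

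The genes whose level followed the most abundant ligand and receptor most closely were found by Pearson correlation over the 15 mice of log2 values centred within the groups, given as a description. The mice of each group fall into the clusters of the clock score, so r was also computed after centring within the clusters. For Areg these were Utp15 (0.87), Utp6 (0.84), Fastkd1 (0.83), Mtx3 (0.82) and Phlda1 (0.81), and with the clusters centred they lay between 0.71 and 0.88. For Erbb3 they were Ppp1r15b (0.96), Prkce (0.95), Rb1 (0.95), Trp53inp1 (0.95) and Dennd1b (0.94), and between 0.88 and 0.94 with the clusters centred.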

How the data were processed

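RNA of 15 ceca was compared between AIMD and vehicle-treated mice, grouped by the sample labels. The authors mapped reads to GRCm38 with STAR, counted them with featureCounts and deposited FPKM per gene symbol and mouse. The members and the lists of other genes were chosen with earlier results of these data known. Named genes were the 9 members, called or not, and genes of the role lists, at most the 5 with the largest change where over 5 were called, plus genes marked in the text.

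Each deposited FPKM was scaled by the size factor of its mouse (median of ratios over 13594 genes, 1.01 in every mouse), and log2 was taken after adding a pseudocount of 0.5. Tests were 2-sided and used limma 3.58.1 in R 4.3.3 (lmFit, then eBayes with trend), for genes that reached an FPKM of 0.5 in 7 or more mice. All 24283 genes above 0 held whole multiples of 1 read (tolerance 0.03), which gave the reads per mouse, and the deepest mouse had 4.14 times those of the shallowest. The reads of a gene are known in this way only up to a common factor. The unit found fitted the GENCODE M21 exon length, up to a whole factor, in 66.1% of the 12917 genes compared. Reads limit the precision of low genes. Single values were tested by exact permutation. No 2 mice had identical values. The methods state that several mice shared a cage, and neither they nor the labels give the cage of each mouse. The tests treat the mice as independent, and an effect of shared cages was not tested. 4 rows with a repeated symbol were left out. Some listed genes are not reported by name here, and the counts include them. Alternatives were other pseudocounts, scalings and filters, voom, permutation, a clock score covariate, a replicate block, clock clusters and each mouse left out. Leaving out vehicle replicates 4 and 8 together and scaling by reads outside chromosome M were added after seeing the data. Steps were tested on simulated data. Other steps used Python 3.11.15, numpy 2.4.6, pandas 2.3.3 and matplotlib 3.10.9.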

Additional observations from a re-analysis of the deposited data

Results flagged for a closer look

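Areg in vehicle replicate 4, at an FPKM of 63.2, stood apart from the other vehicle-treated mice, of which the next highest had 35.5. Its gap to that mouse was 0.557 of the range of the 8 vehicle-treated mice, above Dixon's critical value for 8 values. Among 18 groups of member values 1 was marked in this way, where chance marks about 1 in 20. The same mouse had the highest vehicle value of Btc (1.31) and Ereg (2.90) and the lowest of Erbb2 (18.5), and without it the log2 fold change of Areg was 1.16 (limma adjusted p = 0.000548).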

How the results depend on the processing

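Of the settings tried on single members, 246 were counted as unchanged, 10 lost a call, and in 2 the value for Egf moved. Not all of these settings were separate checks. Using the deposited FPKM with no size factor could change little, because that factor was 1.01 in every mouse. The replicate block gave each member the same log2 fold change as leaving out vehicle replicate 8. Unchanged stands for the same direction and side of the threshold in tested members. For Egf, which was not tested, it stands for a shift smaller than the larger group SD of its log2 values. No direction reversed. Calls were lost within the clock clusters, with no filter and without single mice, where fewer mice or more genes entered the test, and any further cause was not tested. Within the high-score cluster (3 AIMD and 4 vehicle-treated mice) 1882 genes, 2 members and 14 pathway genes were called, and log2 fold changes were 0.86 for Areg, 0.74 for Hbegf, -0.60 for Tgfa, 0.40 for Egfr and -0.33 for Erbb2, none past the threshold (limma adjusted p = 0.0605, 0.0886, 0.0818, 0.143 and 0.266). Within the low-score cluster (4 and 4) 2481 genes and 16 pathway genes were called, and Ereg (0.55) and Hbegf (0.75) were not (limma adjusted p = 0.108 and 0.0682). With no filter Tgfa kept -0.70 with an adjusted p of 0.0541 in limma. Egf moved to 0.33 with a pseudocount of 0.1 and to 0.85 with voom.

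With each mouse left out, 3555 to 4643 genes, 6 or 7 members and 23 to 29 pathway genes were called. The log2 fold changes ranged from 0.85 to 1.16 (Areg), 0.72 to 0.93 (Ereg), 1.08 to 1.21 (Btc), 0.67 to 0.84 (Hbegf), -0.83 to -0.56 (Tgfa), 0.07 to 0.11 (Egf), 0.43 to 0.51 (Egfr), -0.65 to -0.48 (Erbb2) and 0.00 to 0.19 (Erbb3). Tgfa lost its call without AIMD replicate 2 or vehicle replicate 7. The median log2 fold change of all tested genes was 0.01 in the main fit and at most 0.04 across the scalings. That highest median came with scaling by reads outside chromosome M, where 57.3% of the calls were higher. The groups share replicate numbers without a stated pairing, and the deviations of same-numbered mice correlated between -0.35 and 0.43, with only number 7 correlating best with its own. With a replicate block 4652 genes and the same 7 members were called. Vehicle replicate 8 has no AIMD mouse of its number, so the block took it out of the comparison between treatments.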
